A study of Mus musculus with 8 samples.

Results

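The regions described here are accessible stretches of the mouse genome that lie far from any annotated start of transcription. From a deposited table of 129304 regions of 800 bp, members were taken on chromosomes 1 to 19 where the table's annotation was plain intergenic, free of repeat and CpG island labels, and where the nearest annotated transcription start site was more than 100 kb away. This gave 4256 members. The rule used position only and no measured value.

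ChIP-seq, in which chromatin carrying a mark is pulled down with an antibody and sequenced, was used to map acetylated lysine 27 of histone H3 (H3K27ac). The nuclei were those of microglia, the resident macrophages of the brain, from C57BL/6 mice 2 years old. One group was wild type (WT) and the other lacked functional Grn (GrnKO), the gene of progranulin, a secreted protein that reaches lysosomes. No other allele or treatment is named in the labels for either group. Nuclei came from frozen hemibrain tissue and were sorted as PU.1+, OLIG2- and NEUN-. Each replicate pooled nuclei of 2 mice, and each genotype had 2 H3K27ac libraries and 2 matching input libraries of chromatin sequenced without immunoprecipitation. The gene product was missing in the whole animal, and the gate selects PU.1+ nuclei, which border macrophages share with microglia. The sex of the mice and the construction of the Grn allele are not given in the sources used here.

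Enhancers are stretches of DNA that bind transcription factors and raise the transcription of genes that can lie far along the chromosome, reached by looping of the chromatin. H3K27ac marks active enhancers and active promoters, and its level at an enhancer generally follows that enhancer's activity. In microglia and other macrophages the factor PU.1, an ETS-family protein, opens many distal enhancers, often together with AP-1, C/EBP, IRF and other factors. The nearest gene is a label for a distal region and need not be its target.

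The rule measures distance to a start site, not to a gene. Against RefSeq gene models on GRCm38.p6, 1012 members (23.8%) lay inside some gene model, of which 787 were in models of long non-coding RNA. Inside protein-coding models lay 160 members (3.76%). Within 100 kb of any gene model lay 3813 members (89.6%), and within 100 kb of a protein-coding model lay 1283 (30.1%). The median gap was 141 kb to the nearest protein-coding model and 16.9 kb to the nearest model of any kind. The members are therefore far from the start sites the table used, and many are not far from a RefSeq transcript.

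Depth was 15491642.5 to 20030832 tags per H3K27ac library and 4078179 to 14415969 tags per input. Levels are scaled tags, which are tags per 10000000 in the library, divided by a trimmed mean of M-values (TMM) factor unless said otherwise. Replicate 1 of WT stood apart, with 49.4% of its tags in the listed regions against 63.3% to 65.7% in the other 3 H3K27ac libraries, and its TMM factor was 0.825 against 1.04 to 1.08. The Grn locus matched the labels. The region over the Grn start (chr11:102429909-102430709) had 357 and 300.1 scaled tags in WT and 0 in both GrnKO libraries. Start regions of 7 of 8 microglial marker genes summed to 5713 to 8173 scaled tags per library, where the eighth gene, Aif1, had no region. This sum and the marker sums that follow are before TMM. Of these genes' 15 tested start regions 2 were called lower. The table holds start regions for only 2 of 8 neuronal genes, which summed to 0 to 3.99, and for 1 of 8 T and NK cell genes, at 0 to 0.92. Astrocyte genes (4 of 8 with a start region) summed to 167 to 241 and oligodendrocyte lineage genes (7 of 8) to 365 to 432. Border macrophage genes (5 of 8 with a start region) summed to 279 and 392 in the WT libraries and to 540.4 and 419.8 in the GrnKO libraries. Of their 10 tested start regions 1, at Ms4a7, was called higher. Endothelial genes (3 of 8 with a start region) summed to 147 and 209 in the WT libraries and to 385 and 418 in the GrnKO libraries. Of their 6 tested start regions 3 were called higher, all at Flt1. The strongest start region of Kdr, another gene of this list, was not called (log2 change 0.40, limma adjusted p = 0.228). The part of these other cells in the results on the members was not tested.

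The deposited table gives positions and no bases. Sequence was therefore available only where a RefSeq gene start window, 250 bases before to 50 after the start, overlapped a member. The table's own start sites are all more than 100 kb away, so these are starts of further RefSeq genes, mostly non-coding. Such windows overlapped 94 members, of which 59 were tested and 8 were called. The 4 windows below show what sits at called members at the Hif1a, Usp6nl, Mir128-2 and Lrig3 loci. Capitals mark matches to GAGGAAGT (a PU.1-type ETS word) or TGANTCA (an AP-1 word). All 4 are on the minus strand of GRCm38.p6 and are printed 5′ to 3′ on that strand.
Gm34189, chr12:73782117-73782416: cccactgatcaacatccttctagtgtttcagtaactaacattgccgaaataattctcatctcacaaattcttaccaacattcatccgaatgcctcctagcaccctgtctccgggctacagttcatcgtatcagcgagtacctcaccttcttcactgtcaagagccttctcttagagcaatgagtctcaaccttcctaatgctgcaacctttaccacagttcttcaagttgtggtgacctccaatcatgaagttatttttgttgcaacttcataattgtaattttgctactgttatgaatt
Gm52546, chr2:6478043-6478342: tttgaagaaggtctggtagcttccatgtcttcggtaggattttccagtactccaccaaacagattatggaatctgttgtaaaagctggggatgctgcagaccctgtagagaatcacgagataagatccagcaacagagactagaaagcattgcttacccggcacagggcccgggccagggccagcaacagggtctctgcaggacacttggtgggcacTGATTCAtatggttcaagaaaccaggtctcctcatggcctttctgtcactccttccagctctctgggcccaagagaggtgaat
Gm39430, chr9:111977952-111978251: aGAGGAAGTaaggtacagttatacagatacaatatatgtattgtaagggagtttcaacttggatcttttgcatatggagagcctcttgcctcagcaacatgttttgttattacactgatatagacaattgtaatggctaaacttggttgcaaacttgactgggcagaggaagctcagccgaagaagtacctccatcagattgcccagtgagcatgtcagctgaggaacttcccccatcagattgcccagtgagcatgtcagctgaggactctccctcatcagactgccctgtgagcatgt
Gm36884, chr10:125744770-125745069: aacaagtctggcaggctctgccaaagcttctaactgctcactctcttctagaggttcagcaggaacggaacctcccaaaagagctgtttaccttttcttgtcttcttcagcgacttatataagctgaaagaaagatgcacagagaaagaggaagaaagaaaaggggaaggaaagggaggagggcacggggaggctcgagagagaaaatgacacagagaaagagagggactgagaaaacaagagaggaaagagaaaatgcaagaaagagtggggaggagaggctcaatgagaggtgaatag

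The Gm34189 window shares 247 bp with a member called higher 119 kb upstream of Hif1a, at a log2 change of 1.12. The Gm52546 window, near Usp6nl, shares 250 bp with a member that had a log2 change of 1.37, and the AP-1 word occurs once in it. In the Gm39430 window the ETS word stands almost at the first base, and the member there, near Mir128-2, had a log2 change of 3.83. The Gm36884 window lies in a member near Lrig3 with a log2 change of -0.78 and holds no match to either word. Of the 8 called members with a window, 2 have a match to either word. Across all 32851 RefSeq windows, on both strands, GAGGAAGT occurred in 3.20%, TGANTCA in 7.81% and the E-box CACGTG in 7.15%. Among the 92 windows that overlap members these shares were 8.70% (8 windows), 8.70% (8 windows) and 4.35% (4 windows). A match is only a match of letters.

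The first question was how much acetylation the members carried. Of the 4256 members, 2272 (53.4%) had enough tags to be tested, against 62.4% of all regions. The other 1984 (46.6%) had a median WT level of 1.57 scaled tags, near the floor of 3 tags, which is 1.498 to 1.94 scaled tags per library before TMM. Members held 2.68% and 2.62% of the tags in autosomal listed regions in WT, and this share was 2.63% and 2.58% in GrnKO. The means were 2.65% ± 0.039 and 2.60% ± 0.032 (SD, n = 2), and the groups overlapped, with a difference of -0.0439 percentage points (exact permutation test, two-sided, p = 0.667; 2 against 2 libraries allow no p under 0.33). As a share of the whole library the direction turned: 1.30% and 1.63% in the WT libraries lay below 1.67% in both GrnKO libraries, a difference of 0.207 percentage points (exact permutation test, two-sided, p = 0.33, the smallest possible). In the inputs the share of tags in autosomal listed regions was 3.55% to 3.86%. Before TMM, summed H3K27ac over the members was 7.91 and 10.5 times that of the own input in WT, and 10.0 and 11.3 times in GrnKO. In bulk chromatin, a change in the number of nuclei that carry the mark and a change in the mark per nucleus cannot be told apart.

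Members were compared between genotypes to ask which distal elements gain or lose acetylation without Grn. In all, 311 of the 2272 tested members (13.7%) passed an adjusted p of 0.05 in limma with Benjamini-Hochberg adjustment over all 80728 tested regions, where 9.72% did. Of these, 203 rose in GrnKO and 108 fell, against 6.80% higher and 2.92% lower in the background. An unadjusted p under 0.05 was reached by 696 members, and by 19293 of all 80728 tested regions. Both GrnKO values lay beyond both WT values, in 1 direction, in 1292 tested members (56.9%), above in 673 and below in 619, against 52.7% of all tested regions. The median log2 change was 0.00099 in the members and -0.0020 in all tested regions, a centring that TMM scaling largely sets.

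The members that rose started low and moved far, a pattern that the filter for enough tags favours in part. A region could pass it through the libraries of either genotype alone. Members near the floor in WT were therefore tested only where their GrnKO levels were higher. Their median level was 22.9 scaled tags in WT and 82.5 in GrnKO, with a median log2 change of 1.70, and 174 of 203 rose at least 2-fold. Over all tested regions the 5488 that rose went from a median of 29.4 to 88.6, with a median log2 change of 1.49, and 4210 of them rose at least 2-fold. The members that fell started high and moved less. Their median level was 182 in WT and 106 in GrnKO, with a median log2 change of -0.89, and 43 of 108 fell at least 2-fold. Over all tested regions the 2355 that fell had a median WT level of 160.2 and a median log2 change of -0.85, and 845 of them fell at least 2-fold, so the same contrast was seen over all regions. The tested members were also split by mean H3K27ac into 4 classes of 568. From the weakest to the strongest class, 4, 54, 81 and 64 members rose and 2, 5, 32 and 69 fell.

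**Figure D1:**
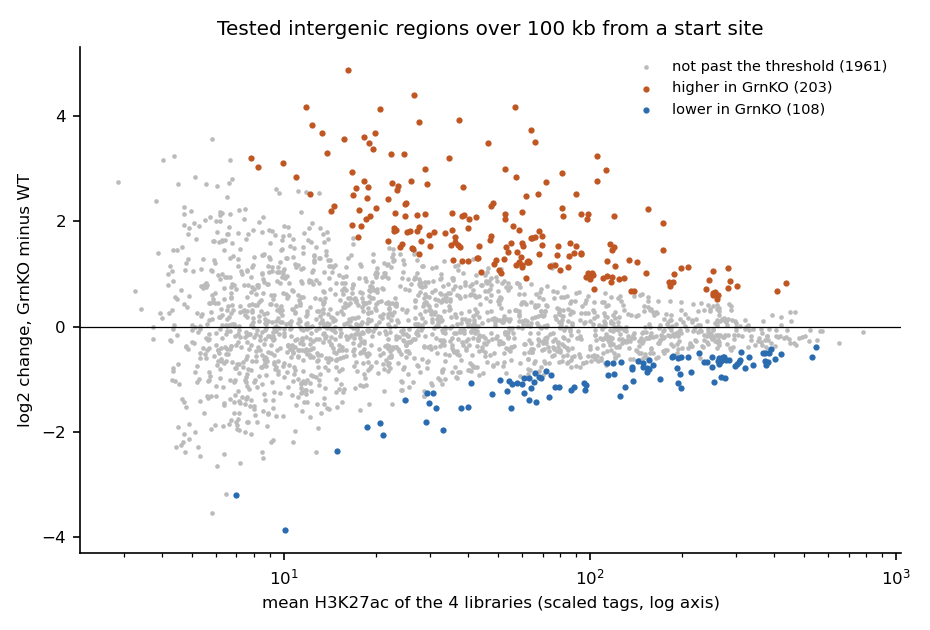
Log2 change (GrnKO minus WT, vertical axis) of each of the 2272 tested members against its mean level in scaled tags over the 4 H3K27ac libraries (horizontal log axis). Orange points are the 203 members that rose, blue points the 108 that fell and grey points the rest; the members that rose reach larger changes at low and middle levels.

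The calls depend on scaling and on the libraries used. Without TMM, on the authors' scaled values as deposited, 267 members were called (8.57% in the background), 246 higher (8.15%) and 21 lower (0.412%). Higher members were then 92.1% of the calls, against 65.3% with TMM, and the median log2 change over all tested regions was 0.22. With edgeR 278 members were called (8.58% in the background), 186 higher (6.08%) and 92 lower (2.50%). With DESeq2 304 were called (9.43%), 193 higher (6.40%) and 111 lower (3.03%). Of the 311 members called with limma, edgeR called 272. Leaving out GrnKO replicate 1 left 65 calls and leaving out GrnKO replicate 2 left 82, while leaving out WT replicate 1 or 2 gave 485 and 488. The share of all tested regions moved alike, to 1.68%, 2.35%, 15.9% and 17.7% in the same order. In the 4 input libraries limma called 0 members, with 40 at an unadjusted p under 0.05 (1189 over all tested regions), and edgeR called 0, with 0 at an unadjusted p under 0.05.

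Position relative to the start site was then examined. Of 1530 tested members at 100 to 200 kb, 150 rose and 70 fell (14.4%). At 200 to 500 kb, 46 rose and 30 fell of 650 (11.7%), and beyond 500 kb 7 rose and 8 fell of 92 (16.3%). Upstream of the gene 102 rose and 56 fell of 1136 tested, and downstream 101 rose and 52 fell of 1136. Of the calls, 68.2% were higher at 100 to 200 kb, 60.5% at 200 to 500 kb and 46.7% beyond 500 kb, where only 15 members were called. Differences between these classes were not tested. Of intergenic regions 1 to 50 kb from a start, 12.8% were called (1489 of 11617), and of those at 50 to 100 kb 14.7% (376 of 2552). Promoter regions had 4.52% (644 of 14239). The members' share thus lies beside those of other intergenic regions and above that of promoters, as counts without a test.

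**Figure D2:**
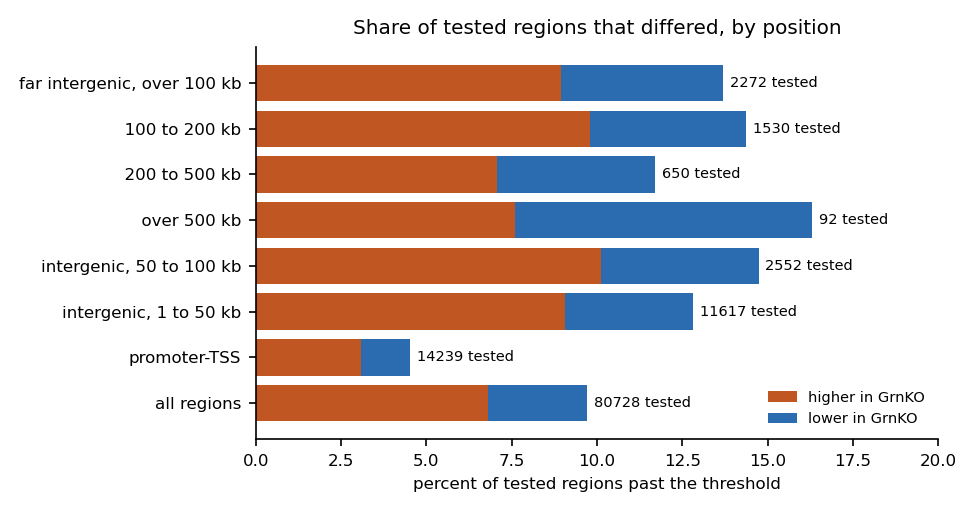
Percent of tested regions past the threshold (horizontal axis, from 0) for the members, their 3 distance classes, nearer intergenic regions, promoters and all tested regions. Orange is higher and blue lower in GrnKO, with the number tested at each bar; promoters stand lowest at 4.52%, and all intergenic classes lie above the 9.72% of all regions.

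Gene models were used in the same way, again without a test. Among 194 tested members more than 100 kb from any gene model, 17 rose and 13 fell (15.5%). Among 614 inside some gene model, 55 rose and 17 fell (11.7%), and among 1584 over 100 kb from a protein-coding model 149 rose and 78 fell (14.3%). Among 88 inside a protein-coding model 11 rose and 4 fell (17.05%). Of all members, 1202 (28.2%) overlap another one, so that neighbours share tags.

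The region with the smallest p lies at chr9:120774998-120775798, 139.9 kb from the uncharacterised gene 1700020M21Rik. Its nearest protein-coding model is Ctnnb1, the gene of beta-catenin, 158 kb away. It had 14.9 and 24.6 scaled tags in WT and 204 and 177 in GrnKO. Both GrnKO libraries stood far above both WT libraries, with a log2 change of 3.25 (SE 0.29, limma adjusted p = 3.62e-06). Overlapping and adjacent members moved with it: all 4 tested members of this locus rose, from summed levels of 80.6 and 102 in WT to 639 and 572 in GrnKO.

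Near Mir7237, the region chr8:122110673-122111473 was at 4.69 and 5.50 scaled tags in WT, a few times the floor, and at 103 and 114 in GrnKO (log2 change 4.17, SE 0.40, limma adjusted p = 6.82e-06). RefSeq places this region inside the model of the protein-coding gene Zfp469, although the table calls it intergenic. All 3 tested members assigned to Mir7237 rose. Near Pdzrn3, which encodes an E3 ubiquitin ligase with PDZ domains, chr6:101554990-101555790 rose from 5.86 and 7.60 to 91.4 and 80.7 (log2 change 3.50). The input of GrnKO replicate 2 had 43.9 scaled tags there (before TMM), the highest of the 4 inputs at this region, and its part in that change was not tested.

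Jun encodes a subunit of the AP-1 transcription factor. The region chr4:95212824-95213624, 161 kb upstream of Jun, had 21.9 and 14.9 scaled tags in WT and 161 and 127 in GrnKO (log2 change 2.92, SE 0.30, limma adjusted p = 1.30e-05). The GrnKO replicate 2 input held 44.9 scaled tags at this region (before TMM). Its overlapping neighbour chr4:95212396-95213196, where no input held a tag, went from 37.5 and 18.1 to 181 and 185 (log2 change 2.76). The locus of 10 tested members 139.7 to 161 kb upstream had summed levels of 553 and 603 in WT and 1112 and 1187 in GrnKO. All 10 had positive log2 changes and 4 rose. Over all 25 tested members assigned to Jun, 4 rose and 0 fell. The number that rose was 2 without GrnKO replicate 1, 3 without GrnKO replicate 2, 6 without WT replicate 1 and 7 without WT replicate 2. At the start of Jun itself the strongest region had a log2 change of 0.32 (limma adjusted p = 0.362).

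Hif1a encodes the oxygen-regulated subunit of a transcription factor that raises glycolytic genes. Its 7 tested members, 107 to 122 kb upstream, all rose. The closest protein-coding model to them is Prkch, a protein kinase C gene, 835 to 15654 bp away. The region chr12:73790472-73791272 had 23.1 and 13.6 scaled tags in WT and 131 and 120.2 in GrnKO (log2 change 2.75, SE 0.32, limma adjusted p = 3.13e-05). The most acetylated member of the group, chr12:73779717-73780517, went from 278 and 353 to 599 and 519 (log2 change 0.83). The window printed above for Gm34189 shares 247 bp with the member at chr12:73781563-73782363, which had 88.4 and 169 in WT and 244 and 292 in GrnKO. In each of these members both GrnKO values exceeded both WT values. Summed over the 7, levels were 831 and 1003 in the WT and 1842 and 1816 in the GrnKO libraries. At the start of Hif1a, levels of 158 and 140.4 in WT stood against 244 and 230.2 in GrnKO (log2 change 0.67, limma adjusted p = 0.0181). Without GrnKO replicate 2, 4 of the 7 far members remained past the threshold, and without GrnKO replicate 1, 5 did.

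Ipo5, which encodes a nuclear import receptor, and Rap2a, a small GTPase, lie near each other on chromosome 14. The region chr14:120740657-120741457 near Ipo5 went from 22.3 and 28.8 scaled tags to 191 and 119 (log2 change 2.53). All 7 tested members of this locus rose, with log2 changes from 0.61 to 2.76 and summed levels of 434 and 476 in WT against 1186 and 1023 in GrnKO. Leaving out GrnKO replicate 2 reduced this to 3 of 7, and leaving out GrnKO replicate 1 to 4. At chr14:120661142-120661942 near Rap2a, 35.2 and 39.8 became 144 and 172 (log2 change 2.04), and 3 of the 5 tested Rap2a members rose.

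Cxcr4 encodes the receptor of the chemokine CXCL12. All 6 tested members assigned to it lie upstream, and 5 rose. The first, chr1:128705015-128705815 at 113 kb, had 26.98 and 46.1 scaled tags in WT and 179.6 and 142 in GrnKO (log2 change 2.15, SE 0.28, limma adjusted p = 8.35e-05). The member at 155 kb went from 23.9 and 18.6 to 102 and 95.5 (log2 change 2.17). The start of Cxcr4 rose as well, from 48.5 and 23.3 to 184 and 204 (log2 change 2.49), and all 3 of its tested start regions were called. The GrnKO libraries were higher at the start regions and at the far members alike, and 3 of the far members kept the call without GrnKO replicate 1.

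The remaining regions of the 12 higher ones were near Mdfic, Usp6nl, Adgb and Btg1. The Mdfic region (chr6:15841638-15842438), near a gene for a regulator of transcription factors, had 3.91 and 14.9 scaled tags in WT and 139.7 and 98.5 in GrnKO. The Usp6nl region (chr2:6470884-6471684), near a gene for a GTPase-activating protein, had 41.5 and 27.5 against 154 and 149. Near Adgb, a globin-family gene, chr10:10287259-10288059 had 105 and 80.9 against 256 and 251. Near Btg1, an antiproliferative gene, chr10:96720714-96721514 had 20.7 and 4.19 against 115 and 124, with the WT values far apart as a ratio. All 12 stayed past the threshold under the authors' scaling, in edgeR and DESeq2, and without any 1 of the 4 H3K27ac libraries.

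**Figure D3:**
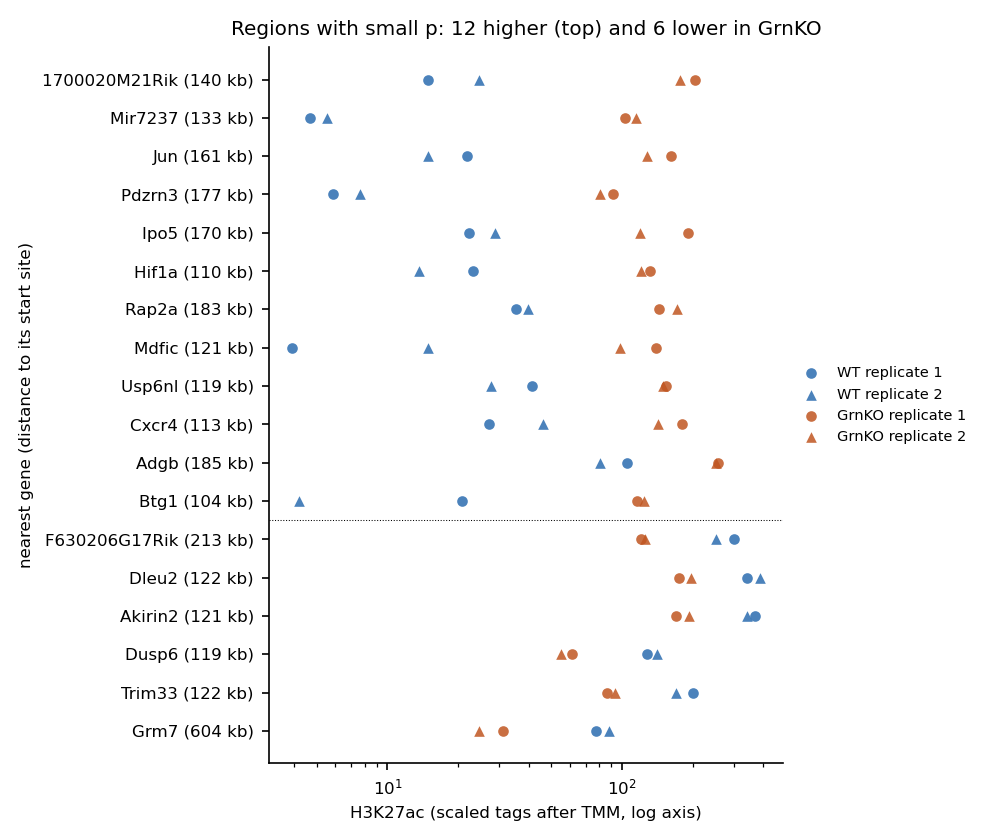
H3K27ac in scaled tags after TMM (horizontal log axis) at the 12 higher members with the smallest p and at 6 lower members, 1 per locus, labelled by nearest gene and distance in kb. Blue symbols are the 2 WT and orange the 2 GrnKO libraries; at all of them the genotypes do not overlap, which the choice of members required.

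Of the members that fell, the one with the smallest p was near F630206G17Rik, at chr11:45595112-45595912, with 300.3 and 251 scaled tags in WT and 119.9 and 125 in GrnKO (log2 change -1.16, SE 0.17, limma adjusted p = 0.00033). The 6 lower regions named here had WT levels from 77.8 to 388, so all were well acetylated in WT. Near Dleu2, a non-coding RNA gene that hosts microRNAs, chr14:61803905-61804705 had 343 and 388 against 175 and 197 (log2 change -0.97). Near Akirin2, which encodes a nuclear regulator of immune gene transcription, chr4:34429239-34430039 had 368 and 342 against 169 and 193 (log2 change -0.97). The input of WT replicate 1 held 66.2 scaled tags there (before TMM). The part of that input in the change was not tested.

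Further lower regions were near Dusp6, Trim33 and Grm7. Dusp6 encodes a phosphatase that inactivates ERK kinases, and chr10:99381731-99382531 near it had 128 and 142 scaled tags in WT and 61.4 and 55.1 in GrnKO (log2 change -1.20). Trim33 encodes a ubiquitin ligase of the TGF-beta pathway, and chr3:103401066-103401866 had 201 and 170.5 against 86.3 and 93.7 (log2 change -1.04). The Grm7 region, chr6:110041207-110042007, lies 604 kb from the start of this glutamate receptor gene and had 77.8 and 88.3 against 31.1 and 24.5 (log2 change -1.55). Under the authors' scaling, which shifts all changes upward, 3 of these 6 stayed past the threshold: those of F630206G17Rik, Dusp6 and Grm7. Without GrnKO replicate 1, 5 of 6 did, and without GrnKO replicate 2, 4 did.

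Sall1 encodes a zinc finger factor that defines microglia among macrophages, and it had 33 tested members, all upstream. Of these 30 had negative log2 changes, 10 fell (30.3%) and none rose, while over all tested regions 2.92% fell and 6.80% rose. The strongest, chr8:89404066-89404866 at 360.3 kb, had 598 and 680 scaled tags in WT and 435 and 414 in GrnKO (log2 change -0.59, SE 0.12, limma adjusted p = 0.00412). Of 10 tested members in the locus 340 to 360 kb upstream, 6 fell and all 10 had negative values, and their summed levels were 3162 and 3931 in the WT and 2128 and 2414 in the GrnKO libraries. Both WT libraries were above both GrnKO libraries in this sum. With the authors' scaling 0 of the 33 were lower, though 27 still had negative values, and without GrnKO replicate 1 only 1 fell. With edgeR 9 fell. At the Sall1 start, levels of 468 and 628 in WT and 357 and 461 in GrnKO in the strongest region did not pass the threshold (log2 change -0.42, limma adjusted p = 0.0933), and 1 of the 3 tested start regions fell.

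Further loci with many lower members were near Mir378d and Marcks. Marcks encodes an actin-binding substrate of protein kinase C, and all 5 tested members of the locus 111 to 122 kb from its start fell, with log2 changes from -0.73 to -0.58. Their summed levels were 1655 and 1867 in the WT and 1131 and 1109 in the GrnKO libraries. Near Mir378d, a microRNA gene, all 13 tested members of the locus had negative values and 5 fell, with summed levels of 2039 and 1814 against 1108 and 1192. These declines were shallow, and they were sensitive to scaling and libraries. Of 6 lower Marcks members, 1 was lower with the authors' scaling and 0 without GrnKO replicate 2. Of the 5 at Mir378d, 0 were lower with the authors' scaling and 0 without GrnKO replicate 1.

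**Figure D4:**
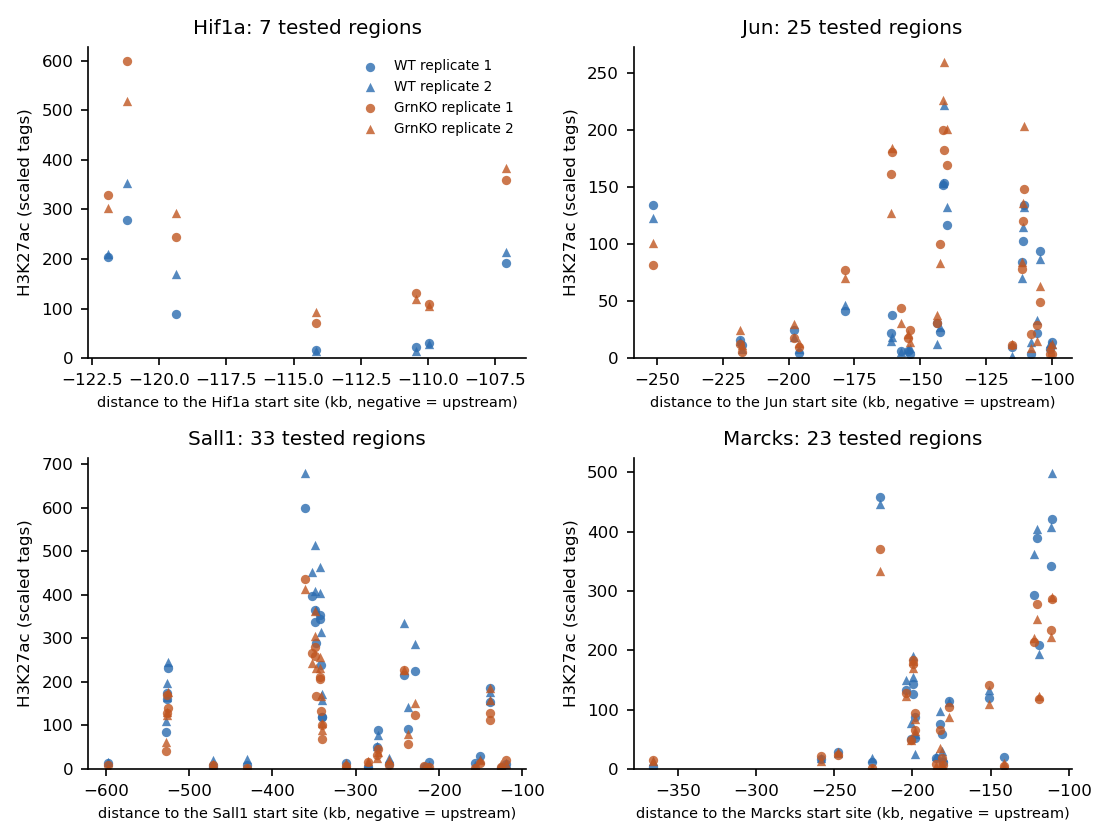
H3K27ac in scaled tags after TMM (vertical axes) at every tested member assigned to Hif1a (7), Jun (25), Sall1 (33) and Marcks (23), against distance to that gene's start in kb (negative is upstream). Circles and triangles are replicates 1 and 2, blue WT and orange GrnKO; orange lies above blue at Hif1a and at part of the Jun members, and below blue at most Sall1 members and at the Marcks members 111 to 122 kb away.

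Called members often lay beside each other, and 28.2% of all members overlap another one and share tags. Loci were not drawn over all regions, so the counts below have no background share beside them. Joining members with gaps of at most 10000 bp gave 2141 loci, of which 1332 held 1 member and the largest held 44. Among 984 loci with a tested member, 190 had a called one: 123 had higher members, 67 had lower members and 0 had both. In 66 loci with 2 or more calls lay 187 of the 311 called members. Counted by the table's nearest gene, 99 genes had higher and 56 had lower members, and 3 had both, Ly86, Trps1 and Zfp608. At Zfp608 the higher and the lower member lie on opposite sides of the start, one with 4.30 and 7.07 scaled tags in WT against 28.6 and 30.2 in GrnKO, the other with 432 and 430.0 against 304.3 and 304.1.

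The 6 members named next were chosen by their mean WT level, which is part of the comparison, and such a choice favours falls. They differed little or fell. The strongest, near Gm20110 (chr10:99460887-99461687), had 782 and 833 scaled tags in WT and 795 and 717 in GrnKO (log2 change -0.10), and the values overlapped. Near Zeb2, a gene for a zinc finger repressor that microglia express, chr2:45239324-45240124 had 705 and 739 against 602 and 554 (log2 change -0.32, limma adjusted p = 0.0741; 0.042 in DESeq2). Near Prdm1, chr10:44630264-44631064 had 573 and 600.3 against 558 and 555 (log2 change -0.08). At 4921509O07Rik, chr13:113381939-113382739 fell from 583 and 658 to 480.3 and 469.7 (log2 change -0.38, limma adjusted p = 0.0466; 0.0627 in edgeR and 0.818 with the authors' scaling). The AY512915 region had 582 and 618 against 461 and 545 (log2 change -0.26, limma adjusted p = 0.20). Together with the Sall1 region above, 2 of these 6 passed the threshold, and both fell. With the authors' scaling neither passed, and the adjusted p of the Sall1 region was 0.501.

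The members at the edges of the rule follow. The 3 farthest tested members were all assigned to 1700019E08Rik on chromosome 2, at 1175 to 1392 kb, and none passed the threshold. The farthest called member in each direction was, for higher, chr1:148903862-148904662, 1018 kb from Pla2g4a, with 12.5 and 34.8 against 68.7 and 57.4 scaled tags (log2 change 1.54, limma adjusted p = 0.0217, edgeR 0.0517), and, for lower, chr15:50102740-50103540, 786 kb from Trps1, with 96.2 and 61.0 against 47.0 and 27.2 (log2 change -1.08, limma adjusted p = 0.0441, edgeR 0.0627). Both are lost in edgeR. Just inside the limit, at 100.015 kb from Jun, chr4:95151837-95152637 had 14.5 and 12.6 against 3.39 and 12.7. Just outside it, at 99.994 kb from Mir680-3, chr12:35294491-35295291 had 30.1 and 15.7 against 40.2 and 32.5.

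Gene lists written from general knowledge of microglia were counted through the nearest gene. The homeostatic list, genes that resting microglia express, had 33 tested members, all of them Sall1, with the 10 that fell described above. The disease-associated list, genes that rise in microglia around amyloid and lipid debris, had 16 tested members, of which 8 rose and 0 fell (50.0%, median log2 change 0.89, against 9.72% and -0.0020 over all tested regions). Of these, 7 lay in 1 locus of 15619 bp assigned to Hif1a, and 1 was at Igf1, a growth factor gene. Some of the 7 overlap and share tags, and 5 remain in a set without overlaps. The Igf1 member, chr10:87696280-87697080, went from 13.3 and 20.4 scaled tags to 67.3 and 59.1 (log2 change 1.87, limma adjusted p = 0.00273), and all 4 tested Igf1 members had positive values. It is lost without either GrnKO replicate. The 5 tested members at Ank and Dkk2 did not pass, with median log2 changes of -1.24 at Ank (2 of 2 negative) and -1.18 at Dkk2 (2 of 3 negative).

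Among transcription factor genes of myeloid cells 191 members were tested, 10 rose and 10 fell (10.5%, near the 9.72% of all tested regions, with a median log2 change of -0.09). All 10 that fell were at Sall1. The 10 that rose were at Jun (4), Bach2 (3), Klf4 (2) and Zeb2 (1). Bach2 encodes a repressor that competes with AP-1, and its member chr4:32274569-32275369 went from 34.4 and 24.1 to 83.7 and 74.3 scaled tags (log2 change 1.42). Maf, a macrophage factor gene with 33 tested members, had 0 calls, and Runx1 had 0 of 16. The signalling and adhesion list had 15 tested members, with 1 higher at Itga4, an integrin gene, and 4 lower, among them 1 at Pik3r1, which encodes a regulatory subunit of PI3 kinase. The Itga4 member had 39.5 and 30.4 against 84.3 and 80.7 scaled tags (log2 change 1.23). Lysosomal genes had 7 members and 0 tested, and inflammatory and chemokine genes had 4 tested and 0 called.

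The 5 nearest genes with the most tested members were Sall1 and Maf with 33 each, Tbl1xr1 and Prdm1 with 32 each, and Ly86 with 31. At Tbl1xr1, a gene for a corepressor subunit, 5 members rose and 0 fell (median log2 change 0.43), and 0 passed without either GrnKO replicate. At Prdm1, a gene for a transcriptional repressor, 1 fell. At Ly86, which encodes a partner of a Toll-like receptor homologue, 1 rose and 2 fell. The called shares were 30.3% at Sall1, 0% at Maf, 15.6% at Tbl1xr1, 3.1% at Prdm1 and 9.68% at Ly86. Over all tested regions 9.72% were called, 6.80% higher and 2.92% lower.

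The start of the nearest gene gives a measure the rule did not use. For each nearest gene with a tested region within 1000 bp of its start, the strongest such region was taken. Among 65 genes with a higher far member, 43 start regions (66.2%) had positive log2 changes, 7 were called higher and 1 lower, and the median was 0.17. Among 26 genes with a lower far member, 5 (19.2%) were positive, 0 were called in either direction, and the median was -0.28. Among 221 genes without a called member, 113 (51.1%) were positive, 6 were higher and 9 lower, and the median was 0.01. These counts come from the same 4 libraries as the far members and are a description. At Igf1 the start rose from 68.4 and 46.4 scaled tags to 214 and 168 (log2 change 1.73), and at Mdfic from 63.0 and 43.5 to 150.2 and 125 (log2 change 1.37, limma adjusted p = 0.0017). Most start regions of genes with a called far member did not pass the threshold.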

How the data were processed

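H3K27ac and input ChIP-seq libraries of WT and GrnKO microglial nuclei (4 and 4) were analysed. Per the submitters' processing notes, Bowtie2, HOMER and DESeq2 were used on mm10, with no versions given there. Per the file headers, the deposited values are a signal: tags per region scaled by the authors to 10000000 per library, over regions from reproducible ATAC-seq peaks. Multiplied by the library totals, 100% of values were whole read ends, at 2 per tag.

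The values were divided by TMM factors and tested as log2(value + 1) with limma 3.58.1 (lmFit, eBayes with trend, genotype only) in R 4.3.3 on 80728 regions kept by filterByExpr (minimum 10) of edgeR 4.0.16. Benjamini-Hochberg adjustment ran over all of them at 0.05. Log2 changes on this scale understate the change of low regions. DESeq2 1.42.0 and edgeR on the recovered counts were alternatives, and all 3 tests were tested on simulated data. Counting error alone sets the floor of 3 tags.

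Groups came from the sample titles. Replicates are separate pools of mice, and 2 per genotype limit the precision. The distance classes, lists and members were chosen with earlier results of these data known. Named regions were the 12 higher and 8 lower with the smallest p and non-overlapping groups, the 6 strongest in WT, the 4 loci with most calls per direction, the extremes of distance, called members of the gene lists, and the 5 genes with most tested members. Others were chosen after their values were seen. Some regions that this rule takes are not reported here. Gene models, symbols and start windows are from RefSeq on GRCm38.p6, the assembly that mm10 names, and 4172 member symbols matched. No chromosome 18 sequence is printed.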

Additional observations from a re-analysis of the deposited data

How the results depend on the processing

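Of 1010 recomputed values for 94 named regions, 865 kept their direction and side of the threshold, 112 lost the threshold, 22 gained it and 11 changed sign. No sign change concerned a called region: Gm20110 (0.13), Prdm1 (0.15) and 1700019E08Rik (0.19) under the authors' scaling, 1700019E08Rik without the filter (0.023), 1700019E08Rik members when single libraries were left out (from -0.35 to 0.32 and from -1.33 to 0.16), a Jun member (-0.0253 to 0.50) and 2 Mir378d members (-1.07 to 0.20 and -0.77 to 0.069), all as log2 changes. The number of lower members was 21 under the authors' scaling and 63 without the filter. Leaving out 1 library at a time, called members ranged from 65 to 488, higher from 52 to 322 and lower from 13 to 171. The lone library of a genotype was then assumed to vary like the other group. Members over 200 kb away gave 91 calls, 53 higher and 38 lower, since fewer were tested. The share of whole-library tags in members differed by 0.207 percentage points, higher in GrnKO, in place of -0.0439. For other changes the cause was not tested. Same-numbered libraries deviated with a correlation of 0.034 over all regions and 0.043 over members. With 2 libraries per genotype this cannot decide whether same-numbered samples share more than a number. With the replicate block, 169 members were lower and 430 were called in all (14.1% of all tested regions were). The input libraries then gave 54 calls among members and 2410 over all tested regions, for a cause that was not tested. In the inputs 43.1% to 91.3% of all regions held 0 tags. The inputs' low depth limits any comparison between them.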
